A study of Mus musculus with 4 samples.

Results

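The genes described here are 258 expressed members of the Zfp series, the mouse genes whose symbols start with Zfp followed by a number. They were chosen by symbol and level from RNA-seq count data of mouse embryonic stem cells (mESC) of the line ZHBTc4. The 37991 genes in the table included 375 protein-coding Zfp genes. Members were selected on a mean of at least 5 CPM over all 4 libraries, CPM being the usual counts-per-million value of raw counts divided by the library total, and the symbols Zfp42, Zfp57 and Zfp352 were left out. Of the 372 genes then left, the level rule removed 114, of which 11 had no read in any library. All 258 members entered the test. The levels that chose them are a description and were not tested.

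Total RNA was sequenced from 2 wild-type (wt) libraries and 2 libraries of cells that lack both B-type lamins (dKO), the series being concerned with whether nuclear lamins are needed for genome organization in these cells. All 4 libraries carry the same line name, and no treatment is given for either genotype. The design text calls the libraries of a genotype biological replicates, but nothing in it says whether the dKO cells were more than 1 clone, so differences between clones and between genotypes cannot be told apart. With 2 libraries against 2, an exact two-sided permutation test of a single gene cannot give a p below 0.333, so tests come from a model fitted across 14027 genes.

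Most Zfp genes encode proteins with tandem C2H2 zinc fingers, small folds in which a pair of cysteines and a pair of histidines hold a zinc ion. Each finger can contact a few bases of DNA, and arrays of fingers read longer sites. Many of these proteins also carry a KRAB domain, which recruits the corepressor Trim28 and through it H3K9 methylation, and in embryonic stem cells this system is known for silencing retroelements and protecting imprints. The genes have multiplied by tandem duplication, so many stand in clusters of related copies, and such clusters are known to carry heterochromatin marks.

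The fingers of 4 members are shown because the values below turn on these genes: Zfp568 and Zfp990 had the highest levels per length, Zfp729a had the smallest p, and Zfp560 had the largest difference. Each line is the coding strand of 1 finger and the linker that follows it, as 84 bases (28 codons) from GENCODE M21 transcripts on GRCm38. It is the first finger of the usual spacing with another directly after it. Capitals mark the codons of the zinc-binding cysteines and histidines.
Zfp568: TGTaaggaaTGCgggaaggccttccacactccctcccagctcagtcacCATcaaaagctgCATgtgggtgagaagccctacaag
Zfp990: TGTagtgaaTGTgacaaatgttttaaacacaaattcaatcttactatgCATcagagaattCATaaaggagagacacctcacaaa
Zfp729a: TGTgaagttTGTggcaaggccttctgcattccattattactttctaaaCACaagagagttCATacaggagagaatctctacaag
Zfp560: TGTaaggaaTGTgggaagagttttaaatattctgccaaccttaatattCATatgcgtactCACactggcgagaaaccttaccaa

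The Zfp568 finger lies at chr7:30022724-30022807 on the plus strand and the Zfp990 finger at chr4:145537157-145537240 on the plus strand. The Zfp729a finger lies at chr13:67621581-67621664 and the Zfp560 finger at chr9:20348641-20348724, both on the minus strand. All 4 are in the last exon of their transcript (exon 10 of 10, 4 of 4, 4 of 4 and 7 of 7, respectively). Between pairs of these fingers 44 to 56 of the 84 bases were identical, the most between Zfp990 and Zfp560. The capitals stand at the same positions in all 4 lines because fingers of that spacing were chosen. Translated coding sequences gave 11 fingers for Zfp568, 13 for Zfp990, 27 for Zfp729a and 15 for Zfp560.

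Levels were high for a few members and low for most. Between genes, levels are compared per length, as RPKM, which here is CPM divided by the exon length in kilobases. The median member had 4.92 RPKM, with a range from 0.462 (Zfp846) to 93.4 (Zfp568). Of the 258 members, 69 (26.7%) reached 10 RPKM and 8 (3.10%) were under 1 RPKM. Over all protein-coding genes of at least 5 CPM the median was 8.83 RPKM. Of the 10 members with the highest RPKM, 6 stood in clusters and 4 of those were in 1 cluster of chromosome 4.

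Zfp568, a KRAB protein that represses a placental transcript of Igf2, was the highest of the 258 genes with 93.4 ± 7.84 RPKM (SD, n = 4). Its TMM-scaled CPM was 600 and 716 in wt and 721 and 710 in dKO, and wt replicate 1 was the low library. Zfp990 followed with 80.1 ± 3.17 RPKM (SD, n = 4), and its CPM was 283 and 283 in wt and 291 and 264 in dKO. The next in order were Zfp106, which binds RNA, at 62.5 ± 4.48 RPKM and Zfp296, a pluripotency-associated factor, at 60.5 ± 15.3 RPKM (SD, n = 4 for both). Zfp106 and Zfp296 did not differ beyond their spread over libraries. Zfp296 was low in 1 library only, with 151 and 79.1 CPM in wt and 137 and 126 CPM in dKO. Zfp207, whose product brings Bub3 to kinetochores, had 48.9 RPKM and a CPM of 325, 315, 357 and 306 in wt replicates 1 and 2 and dKO replicates 1 and 2.

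Both targeted genes were near 0 in the libraries labelled dKO, with Lmnb1 at 667 and 547 CPM in wt against 4.24 and 6.03 CPM in dKO and Lmnb2 at 105 and 117 CPM against 2.52 and 3.28 CPM. Totals per library were 12899964 to 16697970 counts. The 7 pluripotency markers summed to 4481 and 4532 CPM in wt and to 4346 and 4674 CPM in dKO. Of these 7, 2 were higher in dKO and 5 lower, with log2 fold changes from -0.21 to 0.32. The 7 fibroblast markers summed to 8.36 and 10.2 CPM in wt and to 8.84 and 7.93 CPM in dKO. The 6 primitive endoderm markers summed to 28.1 and 24.98 CPM in wt and to 37.5 and 31.9 CPM in dKO, with 4 of 6 higher in dKO. Of 5 blood markers, Ptprc and Hba-a1 were at or near 0, and the sum of the 5 was 128 and 134 CPM in wt and 152 and 222 CPM in dKO, most of it Laptm5. The part of these markers in the Zfp values was not tested. In bulk RNA, fewer cells of a type and less RNA per cell cannot be told apart.

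None of the 258 members passed the test in either direction at an adjusted p of 0.05 (edgeR quasi-likelihood test on genotype alone, with Benjamini-Hochberg adjustment over 14027 genes), and the smallest adjusted p was 0.632, for Zfp729a. Over all genes tested, 12 passed, which is 0.0855%. In simulated counts the same fit found 6 of 50 genes changed 1.5-fold and 26 of 50 changed 2-fold. A member that did not pass can therefore still differ by that much. DESeq2 called 96 genes over the table and limma-voom 5, and both called 0 members. An edgeR fit with a replicate block called 30 members (11.6%), 19 higher and 11 lower, against 1299 of 14027 genes (9.26%) over the table. Libraries of the same number share only that number in the labels, so the block is described in the closing section. For the gene lists below, called refers to the fit on genotype alone. In that fit, 17 members (6.59%) had an unadjusted p under 0.05, 9 higher and 8 lower in dKO, against 5.57% of all genes tested.

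The differences were mostly small. The 95% interval of the log2 fold change lay within ±1 for 229 members (88.8%), against 86.4% of protein-coding genes of at least 5 CPM. Only 15 members (5.81%, against 6.20% of those genes) were beyond ±0.5, and 1 member was beyond ±1. The median log2 fold change (dKO minus wt) was 0.05, with 152 members above 0 and 106 below, against a median of -0.002 over all genes tested. The size of this lean depended on the library left out. The median was -0.02 without dKO replicate 1, 0.10 without dKO replicate 2, 0.03 without wt replicate 1 and 0.05 without wt replicate 2. The 2 dKO libraries were both higher than both wt libraries for 60 members (23.3%, against 17.2% of all genes tested) and both lower for 43 (16.7%, against 16.4%). Summed over the 258 members, the CPM was 11329 and 11842 in wt and 12515 and 12077 in dKO.

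**Figure D1:**
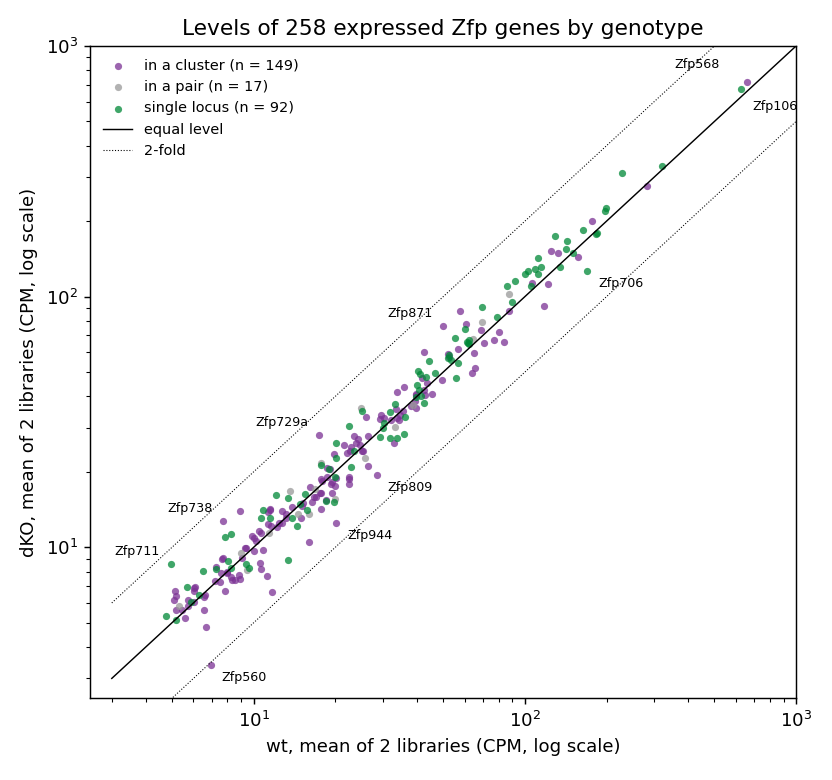
Each point is 1 of the 258 Zfp genes, with the mean CPM of the 2 wt libraries on the x axis and of the 2 dKO libraries on the y axis (both log scales), coloured by whether the gene stood in a cluster, a pair or alone. The points follow the line of equal level, and Zfp560 is the 1 gene beyond a dotted line of 2-fold difference.

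Single libraries of the members differed from each other both within and between genotypes. On a scale of log2(CPM + 1), the median absolute difference over the 258 genes was 0.184 between the wt libraries and 0.182 between the dKO libraries. Over the 4 pairs of 1 wt and 1 dKO library it ran from 0.176 to 0.232. A difference of more than 0.5 was seen for 29 members between the wt libraries and 21 between the dKO libraries. Across genotypes it was seen for 19 members in each pair of the same replicate number. In the pairs of different numbers it was seen for 34 (wt replicate 1, dKO replicate 2) and 38 (wt replicate 2, dKO replicate 1).

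Members tended to differ between the numbered replicates in the same direction in both genotypes. Deviations of same-numbered libraries from their genotype means correlated at 0.573 over the 258 members and at 0.65 over all 14027 genes tested. The clearest cases, picked after their values were seen, included Zfp516, a partner of chromatin-modifying complexes, with 49.95 and 88.6 CPM in wt and 56.4 and 102 CPM in dKO. Zfp819, which represses retroelements, had 18.0 and 31.5 CPM in wt and 18.8 and 32.3 CPM in dKO. Zfp629 went the other way, with 8.76 and 4.34 CPM in wt and 7.80 and 3.40 CPM in dKO. For each of these 3 genes the second library of both genotypes stood on the same side of the first.

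**Figure D2:**
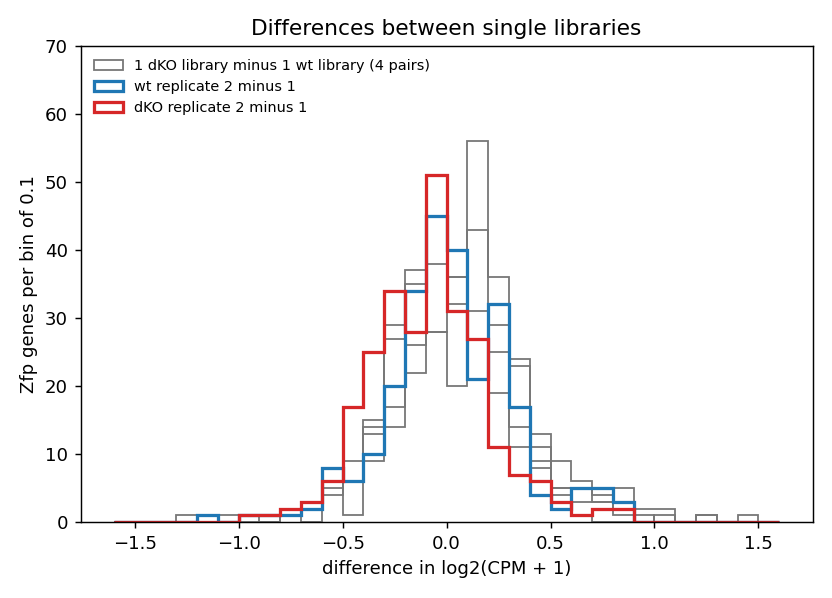
Outlines count the 258 Zfp genes in bins of 0.1 by the difference in log2(CPM + 1) between single libraries: replicate 2 minus replicate 1 within wt (blue), the same within dKO (red), and each of the 4 pairs of a dKO minus a wt library (grey). The outlines overlap over most of their range, with 29 genes beyond 0.5 in either direction in wt and 21 in dKO. Grey pairs of the same replicate number have 19 each, and those of different numbers 34 and 38.

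The largest differences with non-overlapping libraries were as follows, none past the adjusted threshold in the fit on genotype alone. Zfp560, a KRAB zinc finger gene of chromosome 9, had 7.19 and 6.71 CPM in wt and 3.75 and 3.04 CPM in dKO. Its log2 fold change was -1.03 (SE 0.285, adjusted p 0.715 by edgeR). It was also the member with the third lowest level inside the level rule, at a mean of 5.17 CPM, after Zfp619 at 5.05 and Zfp39 at 5.15. Just outside the rule were Zfp213 at 4.95, Zfp937 at 4.79 and Zfp580 at 4.76 CPM.

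Zfp944 had 19.7 and 20.7 CPM in wt against 13.3 and 11.8 CPM in dKO, a log2 fold change of -0.69 (95% interval -1.13 to -0.25). Zfp869 had 11.96 and 11.4 CPM in wt and 8.84 and 4.47 CPM in dKO (-0.81, interval -1.69 to 0.08, and -0.39 without dKO replicate 2). Its dKO libraries differed from each other by a larger factor than the genotype means did. Zfp446 had 15.9 and 16.04 CPM against 11.2 and 9.90 CPM (-0.60), and Zfp386 had 14.9 and 12.03 CPM against 9.88 and 7.87 CPM (-0.60). The wt libraries of both genes stood above the dKO libraries. Zfp28 was less clear, at 5.86 and 7.49 CPM in wt and 4.73 and 4.89 CPM in dKO (-0.47, interval -1.17 to 0.22, and -0.28 without wt replicate 2).

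Zfp809, the KRAB protein that recognises the primer binding site of murine leukemia viruses and silences their proviruses in embryonic stem cells, had 28.9 and 27.9 CPM in wt. In dKO it had 21.6 and 17.2 CPM, a log2 fold change of -0.55 (SE 0.178, adjusted p 0.770 by edgeR). Zfp706, a small protein needed for a timely exit from self-renewal, had 166 and 174 CPM in wt and 134 and 119 CPM in dKO (-0.43, SE 0.121, adjusted p 0.720 by edgeR). It had the highest CPM among the 8 genes of this direction.

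On the other side, Zfp729a had 18.0 and 16.96 CPM in wt and 30.7 and 25.6 CPM in dKO, a log2 fold change of 0.69 (SE 0.173). Zfp738 had 7.27 and 8.15 CPM in wt and 13.2 and 12.3 CPM in dKO (0.72, SE 0.214). Zfp874a had 8.91 and 8.94 CPM in wt and 14.0 and 14.0 CPM in dKO (0.65, SE 0.197). These 3 genes are KRAB zinc finger genes of 1 cluster of chromosome 13. The libraries of a genotype were close for Zfp738 and Zfp874a. The Zfp729a estimate was 0.55 without dKO replicate 1 and 0.82 without dKO replicate 2.

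Zfp945 of chromosome 17 had 39.6 and 45.4 CPM in wt and 60.5 and 60.1 CPM in dKO (0.50, SE 0.135). Zfp369 had 22.2 and 28.01 CPM against 33.6 and 36.6 CPM (0.48), and Zfp236 had 20.2 and 29.5 CPM against 33.5 and 38.6 CPM (0.54). Without wt replicate 1 these estimates were 0.32 and 0.29. Zfp871 had 35.7 and 64.2 CPM in wt and 76.4 and 76.5 CPM in dKO (0.61, SE 0.274). Its low value came from wt replicate 1 alone, and without that library the estimate was 0.25. Zfp711, an X-linked gene whose product works with the histone demethylase Phf8, had the largest estimate, 0.80, and the widest interval, -0.37 to 1.97. Its CPM was 7.19 and 2.70 in wt and 9.15 and 7.93 in dKO, so that wt replicate 2 stood apart, and without it the estimate was 0.25.

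**Figure D3:**
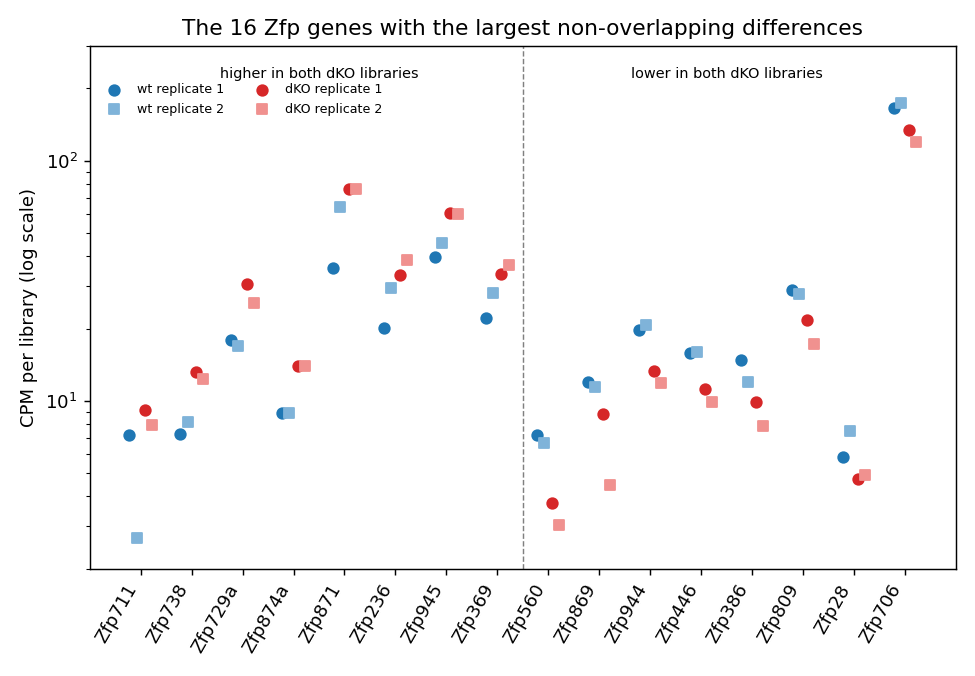
CPM in each of the 4 libraries (log scale) for the 8 Zfp genes with the largest positive and the 8 with the largest negative log2 fold change among those whose genotypes did not overlap, wt in blue and dKO in red. Zfp738 and Zfp874a show close pairs, Zfp729a differs more between its dKO libraries, and Zfp711 and Zfp871 each have 1 low wt library.

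Clustered genes and single loci were set side by side. A cluster is a run of at least 3 protein-coding Zfp genes whose neighbouring starts are at most 500 kb apart in the positions of the deposited table, counted whether or not the genes were expressed. By this rule 149 of the 216 clustered genes (69.0%) were members, as were 17 of 32 genes in pairs (53.1%) and 92 of 124 single genes (74.2%). There were 31 clusters. Chromosome 7 held the most members, 62, and chromosome 17 came next with 31. The median RPKM was 4.09 for clustered members and 6.46 for single ones.

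The median log2 fold change was 0.004 for clustered members, with 78 above 0 and 71 below. It was 0.12 for single-locus members, with 65 above 0 and 27 below, and 0.03 for the 17 members in pairs. Leaving out 1 library moved the clustered median between -0.07, with dKO replicate 1 left out, and 0.09, with dKO replicate 2 left out, and the single-locus median between 0.08 and 0.13. Both dKO libraries stood above both wt libraries for 26 of 92 single-locus members (28.3%) and below them for 11 (11.96%), against 17.2% and 16.4% of all genes tested. Among clustered members these counts were 31 (20.8%) and 28 (18.8%). Beyond ±0.5 there were 12 of 149 clustered members and 2 of 92 single ones, while the typical size of a log2 fold change (median of absolute values) was 0.12 and 0.17. Median CPM was 18.3 for clustered members and 39.9 for single ones, and the part of read depth in these counts was not tested. Genes of 1 cluster share sequence and position and are not replicates, so the difference between the classes was not tested.

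Members were also split by a strict letter pattern of the KRAB box. A box with other residues does not match it, so members without the letters may still carry a KRAB domain. The letters L-Y-x-x-V-M-x-E of the KRAB A box were found in 118 translated members, of which 98 were clustered, 14 single and 6 in pairs. The 118 had a median log2 fold change of -0.006 with 56 above 0 and 62 below. The 140 members without the letters had a median of 0.09, with 96 above 0 and 44 below. The 2 features overlap: medians were -0.01 for the 98 clustered members with the letters, 0.04 for the 51 clustered without, -0.001 for the 14 single with and 0.13 for the 78 single without. The median was near 0 for members with KRAB letters in both kinds of locus. Between the dKO libraries (replicate 2 minus 1), the median difference in log2(CPM + 1) was -0.127 with the letters and -0.035 without. Summed CPM was 3971 and 4115 in wt and 4234 and 3965 in dKO for the 118 members. For the 140 it was 7358 and 7727 in wt and 8281 and 8111 in dKO. The sum of the 118 thus stood above both wt libraries in dKO replicate 1 only. Beyond ±0.5 there were 12 of 118 with the letters and 3 of 140 without, at a median CPM of 16.9 and 31.3. The part of read depth in these counts was not tested. Members with the letters had a median of 12 fingers and the others 8.

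Finger number itself set the medians little apart. They were 0.07 for 50 members with 1 to 5 fingers, 0.05 for 98 with 6 to 11 and 0.04 for 101 with at least 12. In 9 members no C2H2 pattern was found, among them the CCCH-type proteins Zfp36, Zfp36l1 and Zfp36l2.

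Individual clusters differed in their medians. Of the 21 clusters with at least 3 members, which held 130 of them, 14 had a median above 0 and 7 below.

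**Figure D4:**
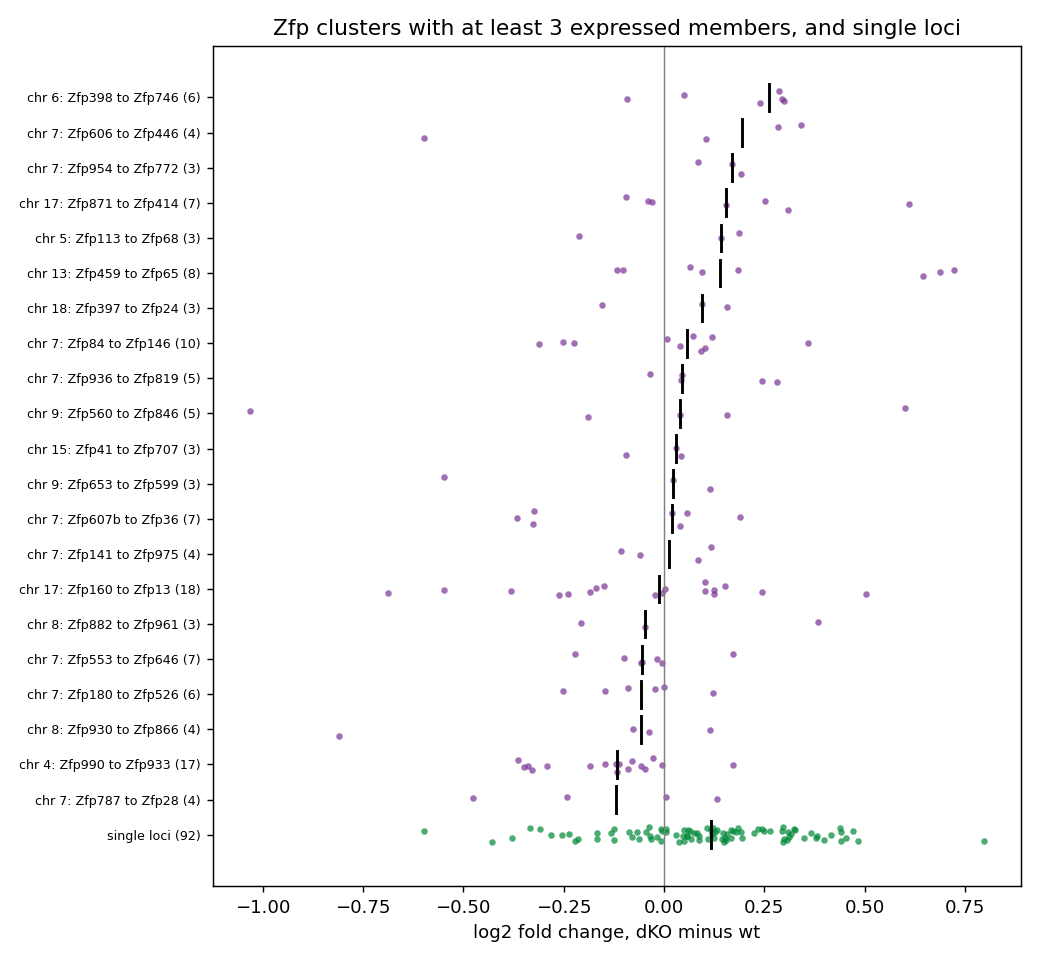
Log2 fold change (dKO minus wt, x axis) of each member in the 21 clusters with at least 3 expressed members and in the single loci, with the median as a black bar and the number of members in parentheses. Cluster medians run from -0.12 to 0.26, and the chromosome 4 cluster has 16 of its 17 points left of 0.

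The cluster of chromosome 4 holds 18 Zfp genes over 2122 kb (chr4:145100662-147222475 in the table's own build), of which 17 were members, all with KRAB letters. The median level of the 17 was 21.4 RPKM, against 4.09 for all clustered members. Of the 17 members, 16 had a negative log2 fold change (94.1%, against 50.3% of all genes tested), and the median was -0.12. For 12 of the 17 both dKO libraries were below both wt libraries, against 16.4% of all genes tested. The signs in this cluster were counted after seeing the data. Its members share sequence and position and are not independent, so these counts are a description only. The summed CPM was 1371 and 1355 in wt and 1292 and 1247 in dKO. The negative count was 13 without wt replicate 2, 14 without dKO replicate 2, 15 without dKO replicate 1 and 16 without wt replicate 1.

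Zfp981 had the largest difference there, with 125 and 110 CPM in wt and 89.2 and 93.8 CPM in dKO (log2 fold change -0.36, unadjusted p 0.029, adjusted p 0.796 by edgeR). Zfp992 had 84.7 and 83.2 CPM in wt and 56.8 and 75.1 CPM in dKO (-0.35). Zfp988 had 68.0 and 63.1 CPM against 53.0 and 50.7 CPM (-0.34), and Zfp978 had 31.0 and 34.7 CPM against 25.8 and 26.4 CPM (-0.33). In these 4 genes every dKO library was below every wt library.

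Among the most abundant genes of the cluster the values were closer to 0. Zfp990 stood at -0.03, and Zfp980 had 158 and 155 CPM in wt and 148 and 140 CPM in dKO (-0.12). Zfp985 had 118 and 126 CPM in wt and 115 and 110 CPM in dKO (-0.11). Zfp979 was the exception in sign, with 182 and 173 CPM in wt and 213 and 186 CPM in dKO (0.17). The cluster is rich in near-identical copies, which bears on how reads are assigned: 10 of its 17 members shared at least 10% of their transcript with another gene at 98% identity or more. All 7 of the others had negative values. That split was made after seeing the data, and copies of lower identity or outside protein-coding genes were not counted. The part of read assignment in the values of the cluster was not tested.

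**Figure D5:**
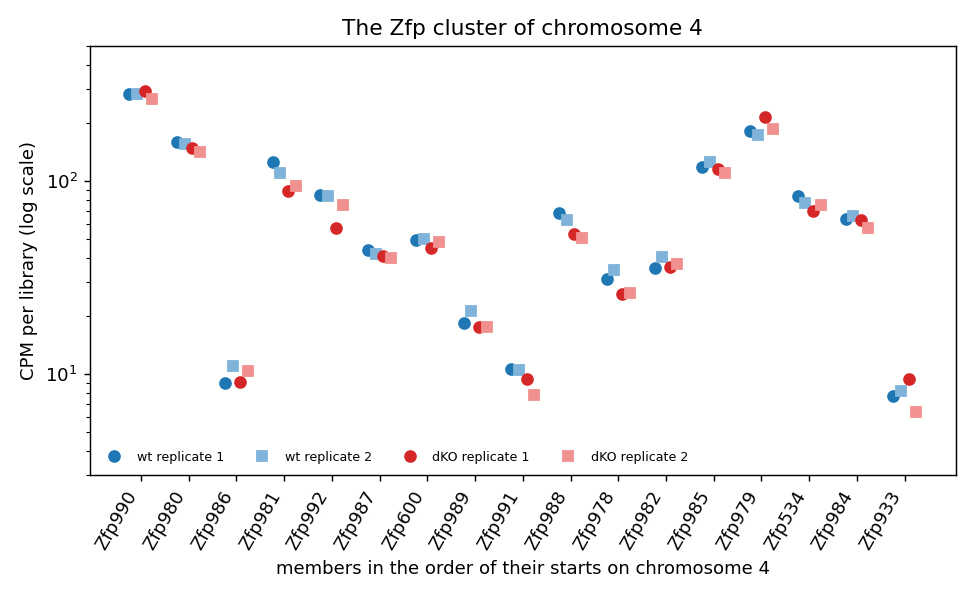
CPM in each library (log scale) of the 17 members of the chromosome 4 cluster, in the order of their starts, wt in blue and dKO in red. The dKO symbols lie just below the wt symbols for most genes, and Zfp979 is the 1 member with a positive log2 fold change.

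The chromosome 13 cluster (chr13:67139530-67927937 in the table's build) holds 20 Zfp genes, of which 8 were members, all with KRAB letters. Its median was 0.14, with 6 members above 0. Zfp738, Zfp729a and Zfp874a, given above, were at 0.65 to 0.72. The other members were lower: Zfp459 at 0.18, Zfp729b at 0.09, Zfp58 at 0.07, Zfp65 at -0.10 and Zfp874b at -0.12. Zfp729a and Zfp729b, neighbours of similar name, thus had different estimates, as did Zfp874a and Zfp874b. Summed over the 8 members, the CPM was 156 and 154 in wt and 197 and 170 in dKO.

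The cluster at the start of chromosome 17 (chr17:21145905-23736454) had 18 members of 22 genes and a median of -0.01. It held members of both signs, from Zfp944 at -0.69 to Zfp945 at 0.50. The cluster of chromosome 9 that holds Zfp560 (chr9:20149580-20399638) had 5 members, all with KRAB letters, and its values ran from -1.03 to 0.60. The upper end was Zfp266, named here after its values were seen, with 69.0 and 46.5 CPM in wt and 109 and 66.0 CPM in dKO. Its replicates differed so much that the genotypes overlapped. The cluster of chromosome 6 (chr6:47769265-48573226) had 6 members, none with KRAB letters, and the highest median of the 21, 0.26. Its values ran from -0.09 (Zfp746) to 0.30 (Zfp398), and none had an unadjusted p under 0.05. The cluster around Zfp568 on chromosome 7 had 10 members, 7 above 0, with a median of 0.06, and the genotypes overlapped for all 10.

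Members were also read by role, from lists chosen with earlier results of these data known. Of 7 regulators of embryonic stem cells, 4 were above 0 and 3 below, with a median of 0.06 and 0 called. Zfp281, a regulator of Nanog, had 170 and 196 CPM in wt and 184 and 171 CPM in dKO (-0.05), and the genotypes overlapped. Zfp462, a chromatin protein that restrains lineage genes, had 101 and 157 CPM in wt and 160 and 190 CPM in dKO (0.44, interval -0.13 to 1.01). Leaving out wt replicate 1 gave 0.15, and leaving out wt replicate 2 gave 0.80. Without wt replicate 1 the median of the 7 was -0.15. Zfp706, the lowest of the list at -0.43, is described above.

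Of 8 genes listed for silencing retroelements and imprints, 7 were members and Zfp708 was under the level rule. The 7 had a median of 0.04, with 5 above 0 and 0 called. Zfp638, which brings the HUSH complex to retroviral DNA, had 204 and 191 CPM in wt and 225 and 216 CPM in dKO (0.16). Zfp445, which maintains imprints together with Zfp57, had 80.1 and 94.1 CPM in wt and 101 and 104 CPM in dKO (0.24, and 0.12 without wt replicate 1). The median of the 7 was -0.006 without wt replicate 1. Zfp809, at -0.55, stood apart from the other 6, whose values ran from -0.09 to 0.24.

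All 8 listed subunits and partners of chromatin complexes were above 0, with a median of 0.28, although 0 were called and 0 had an unadjusted p under 0.05. Because the list was chosen with earlier results of these data known, this count is a description only. None of the 8 had KRAB letters, and 68.6% of the 140 members without them were above 0. Of the 8, 7 were above 0 without dKO replicate 2 and 7 without wt replicate 1, where Zfp516 stood at -0.29 and -0.17. Zfp532 had 112 and 112 CPM in wt and 162 and 123 CPM in dKO (0.35, and 0.14 without dKO replicate 1), and Zfp592 had 47.9 and 40.7 CPM against 54.7 and 55.6 CPM (0.32). Zfp687 had 57.1 and 66.9 CPM against 64.8 and 69.7 CPM (0.12). These 3 proteins work together with Zmynd8 in a transcription-associated complex, and the genotypes overlapped for Zfp687 only. Zfp644, a partner of the H3K9 methyltransferases G9a and GLP, had 108 and 110 CPM in wt and 134 and 124 CPM in dKO (0.25, interval -0.04 to 0.53).

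Of 3 CCCH genes, whose products bind AU-rich elements and speed mRNA decay, all were above 0 and 0 were called. The count above 0 was 2 with any 1 library left out, since Zfp36 or Zfp36l2 then turned negative. Zfp36l1 had 48.7 and 61.5 CPM in wt and 55.7 and 81.0 CPM in dKO (0.31, and 0.02 without dKO replicate 2). Zfp36l2 was at 0.11 and Zfp36 at 0.06, and all 3 overlapped between genotypes. Of 5 genes of mitosis, ubiquitin and translation, 2 were above 0 and the median was -0.03. Zfp598, a ubiquitin ligase of stalled ribosomes, varied little, at 135 and 134 CPM in wt and 131 and 131 CPM in dKO (-0.04, interval -0.30 to 0.23). Zfp91 was at -0.03 and Zfp207 at 0.05. Among highly expressed members with no list, Zfp292 had 210 and 248 CPM in wt and 312 and 310 CPM in dKO (0.44, unadjusted p 0.015, adjusted p 0.720 by edgeR). Zfp518a had 150 and 247 CPM in wt and 194 and 259 CPM in dKO (0.19, and -0.13 without wt replicate 1), and its libraries split by replicate number more than by genotype.

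Partners of the KRAB proteins were read from a list of 19 names, of which 18 had a row. None was called and 0 had an unadjusted p under 0.05, with 13 above 0 and a median log2 fold change of 0.11. Trim28, the corepressor itself, had 2233 and 2217 CPM in wt and 2175 and 2248 CPM in dKO (-0.009, interval -0.31 to 0.29). Cbx5, an HP1 protein that binds methylated H3K9, had 507 and 533 CPM in wt and 576 and 666 CPM in dKO (0.26). Chd4, the remodeller of the NuRD complex, had 476 and 495 CPM against 541 and 380 CPM (-0.08).

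Other C2H2 families of at least 5 CPM gave medians of 0.05 for 9 Zscan genes, -0.03 for 7 Zkscan genes and 0.03 for 36 Zbtb genes. The 258 Zfp members, at 0.05, lay within that range. An unadjusted p under 0.05 (edgeR) was seen for 1 of the 9 (11.1%), 0 of the 7 and 3 of the 36 (8.33%). These are too few genes to compare shares with the members.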

How the data were processed

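The deposited table held raw counts of reads for each Ensembl gene, together with gene positions. Per the labels' protocols, Trizol extraction was followed by TruSeq library construction. The aligner TopHat (TopHat2 2.0.6) and the counting tool HTSeq appear, without a stated role here, per the submitters' processing notes. Build, annotation and strand setting were not given in the sources used here, so genes that overlap others or share near-identical copies are uncertain. Positions of genes and clusters follow the build of the table, while finger positions are on GRCm38.

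Symbols, biotypes and exon lengths came from GENCODE M21 by gene ID, which matched 32938 of 37991 genes. After filterByExpr and TMM scaling, 14027 genes were fitted on genotype alone in edgeR 4.0.16 under R 4.3.3, using its quasi-likelihood F test in robust form, and p-values were adjusted over all of them by Benjamini-Hochberg. CPM after the level rule is TMM-scaled, and each SE was derived from F. Differences between single libraries used log2(CPM + 1). RPKM is CPM per kilobase of union exon. Fingers (C-x(2 to 4)-C-x(12)-H-x(3 to 5)-H) and KRAB letters were searched in translated GENCODE M21 coding sequences, in place of the RefSeq proteins first planned. Near-identical sequence was found with blastn 2.17.0, as stretches of at least 100 bases at 98% identity in transcripts of other protein-coding genes. Total counts ranged from 12899964 to 16697970, and every pair of libraries differed by more than sampling noise (chi-square over its degrees of freedom, 13 to 31.3). P-values measure the spread between these libraries. The scripts were tested on simulated counts, where the fit recovered 6 of 50 genes changed 1.5-fold and 26 of 50 changed 2-fold. It recovered 50 of 50 at 4-fold and at 8-fold, and 20 of its 152 calls (13.2%) were false.

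The members and lists were chosen with earlier results of these data known. Named genes were members past the threshold, the 8 largest differences in each direction without overlap of the genotypes, the 8 highest CPM, the 3 genes on each side of the level rule and up to 3 genes of each list by CPM. Up to 10 members called with a replicate block are named in the closing section. Marker lists and other families are given as sums or medians. Other scalings, filters, tools (DESeq2 1.42.0, limma 3.58.1), a replicate block, other level and cluster rules and leaving out each library were tried. Leaving out members with at least 10% near-identical sequence, and recounting the signs in the chromosome 4 cluster and in the role lists, were added after seeing the data.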

Additional observations from a re-analysis of the deposited data

How the results depend on the processing

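Under the other scalings, filters, tools and level rules, an adjusted p of 0.01 and each left-out library, 0 members were called in either direction, while the count over the table ran from 5 with limma-voom to 96 with DESeq2. Samples that share a replicate number share only that number in the labels. With a replicate block, 19 members were called higher and 11 lower, 63 had an unadjusted p under 0.05, and 1299 of 14027 genes (9.26%) were called over the table, against 30 of the members (11.6%). Of these 30, 10 differed by at least 1.5-fold and 1 by 2-fold, and they held 15 of the 16 genes named for the largest differences. The smallest p in that fit belonged to Zfp266 (log2 fold change 0.58), Zfp729a, Zfp945 and Zfp292. Deviations from the genotype means of same-numbered libraries correlated at 0.65 over 14027 genes and 0.573 over the members. Leaving out 1 library, where the lone library is assumed to vary like the other genotype, gave 10 to 19 members at an unadjusted p under 0.05. The median log2 fold change then ran from -0.018 to 0.101 for all members, from -0.066 to 0.095 for clustered members and from 0.082 to 0.130 for single-locus members, and its sign for all members turned without dKO replicate 1. Of the 35 named genes 9, none called with all 4 libraries, changed sign in at least 1 alternative. Without the 28 members of at least 10% near-identical sequence the clustered median was 0.03. With 2 libraries a genotype, levels near 5 CPM rest on 51 to 102 reads each for Zfp560.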
